A study of Mus musculus with 6 samples.

Results

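Across the autosomes, 459 tiles of 1 kb were low in CpG methylation in the germ cells of both Tex15KO pups. The same tiles were methylated in all 4 pups that carry at least 1 intact Tex15 copy. They were chosen from 329142 tested tiles by their measured levels: a level of 20% or less in each Tex15KO sample, and of 60% or more in each Tex15HT and Tex15WT sample. A tested tile had 3 or more CpGs in the deposited table and at least 10 calls in every sample. The members were 0.139% of the tested tiles and 0.182% of the 252345 tested tiles at 60% or more in all 4 controls, which serve as the background in what follows. No tile met the thresholds in the opposite direction, with Tex15KO at 60% or more and all controls at 20% or less (0 tiles). Since these levels chose the members, the low Tex15KO values and the high control values below are a description and no test of the knockout.

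The study measured genomic DNA of male germ cells by whole-genome bisulfite sequencing, in which an unmethylated cytosine is read as T and a methylated cytosine as C. The groups were Tex15KO (Tex15-/-, pups 3 and 16), Tex15HT (Tex15+/-, pups 7 and 18) and Tex15WT (Tex15+/+, pups 8 and 9), with each pup a sample of its own. All pups were males at postnatal day 2.5 from matings of heterozygous parents on a mixed strain background, and all carried the Oct4-GFP reporter by which the germ cells were flow-sorted. How Tex15 was disrupted is not given in the sources used here. Methylation calls hold no marker levels, so neither the germ cell label nor the loss of Tex15 could be checked in these files. In sorted DNA, fewer methylated cells and fewer methylated copies per cell cannot be told apart.

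Male germ cells erase most of their DNA methylation before birth and then regain it, and around that time the PIWI-piRNA pathway directs new methylation to the promoters of young retrotransposons. The product of Tex15 is a nuclear protein of germ cells that binds the PIWI protein MILI and is needed to silence these elements. Young mouse L1 elements carry tandemly repeated promoter units rich in CpGs at their 5′ end, followed by a long body with fewer CpGs, while endogenous retroviruses carry a long terminal repeat at each end.

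No genome of the files' build, mm9, was used, so the members were matched to sequence by the spacing of their CpGs, which needs no shared coordinates. Each of 32851 mouse promoter windows from RefSeq (GRCm38.p6, from 250 bases before to 50 bases after a gene's start) was compared with the CpG positions of the members, and 15 members matched a window at 8 or more CpGs. In 6 of these the match held at least 50% of the window's CpGs. Background tiles were not compared in this way, so how often other tiles match a window is not known. The 3 windows with the most matched CpGs are printed here because they show sequence that shares the CpG spacing of 3 members. They are written 5′ to 3′ with each CpG in capitals, and were chosen after the values were seen.
Gm52510 (chr2:52131488-52131787, plus strand): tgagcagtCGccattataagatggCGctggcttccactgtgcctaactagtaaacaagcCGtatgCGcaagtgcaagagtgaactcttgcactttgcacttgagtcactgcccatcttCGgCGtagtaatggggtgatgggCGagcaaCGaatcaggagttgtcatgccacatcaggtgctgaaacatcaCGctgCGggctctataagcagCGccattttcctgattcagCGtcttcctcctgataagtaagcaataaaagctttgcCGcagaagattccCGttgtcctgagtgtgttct
Gm36816 (chr6:67008938-67009237, minus strand): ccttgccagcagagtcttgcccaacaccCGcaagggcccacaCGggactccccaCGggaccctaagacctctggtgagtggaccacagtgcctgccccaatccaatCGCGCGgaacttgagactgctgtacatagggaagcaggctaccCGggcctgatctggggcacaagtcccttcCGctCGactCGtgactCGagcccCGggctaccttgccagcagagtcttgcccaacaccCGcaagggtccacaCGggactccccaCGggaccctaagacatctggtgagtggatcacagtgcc
Gm35240 (chr12:77553461-77553760, plus strand): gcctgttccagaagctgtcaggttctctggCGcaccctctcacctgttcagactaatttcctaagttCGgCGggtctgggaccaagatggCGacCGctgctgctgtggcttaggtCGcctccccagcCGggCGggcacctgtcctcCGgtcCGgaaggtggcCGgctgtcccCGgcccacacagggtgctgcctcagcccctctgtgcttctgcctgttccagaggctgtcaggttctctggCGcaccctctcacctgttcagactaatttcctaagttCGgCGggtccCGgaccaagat

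All 14 CpGs of the Gm52510 window had the spacing of 14 of the 16 CpGs of the member chr2:51987001-51988000 (mm9), on the same chromosome, and that spacing occurred at 1 place in the table. At those 14 CpGs the level was 19% in Tex15KO 3 (95% Wilson interval 12.7 to 27.6, 105 calls) and 13.6% in Tex15KO 16 (7.34 to 23.9, 66 calls). The same CpGs stood at 97.6% in Tex15HT 7, 78.4% in Tex15HT 18, 94.1% in Tex15WT 8 and 91.7% in Tex15WT 9. The window repeats no stretch of itself longer than 8 bases.

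The other 2 windows matched members on other chromosomes, so what is printed is sequence of the same CpG spacing and not the members' own. The Gm36816 window shared 10 of its 15 CpGs with the member chr13:40721001-40722000, and the Gm35240 window shared 10 of its 16 with the member chr2:171833001-171834000, which borders a stretch of 6044 bp without a CpG in the table. At the 10 CpGs matched to Gm36816 the level was 6.4% in Tex15KO 3 and 20% in Tex15KO 16, against 86.5% in Tex15HT 7, 90.7% in Tex15HT 18, 92.9% in Tex15WT 8 and 88.9% in Tex15WT 9. At the 10 CpGs matched to Gm35240 it was 21.4% in Tex15KO 3 (14 calls, interval 7.57 to 47.6) and 11.7% in Tex15KO 16 (60 calls), against 95.8%, 94.4%, 100% and 87.5% in Tex15HT 7, Tex15HT 18, Tex15WT 8 and Tex15WT 9. Both windows repeat themselves in tandem: the start of the Gm36816 window recurs 208 bases on with 89 of 92 bases identical (96.7%), and that of the Gm35240 window 212 bases on with 85 of 88 identical (96.6%).

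Depth differed between the samples. The total ran from 27495658 calls in Tex15KO 3 to 52935635 calls in Tex15KO 16, with the controls between 33019847 and 40876698. In Tex15KO 3, 74.4% of the table's cytosines had no call, against 1.71% in Tex15KO 16 and 4.82% to 10.2% in the controls. Within the members the median tile had 32 calls in Tex15KO 3 and 42 in Tex15KO 16, against 25 to 30 in the controls. Tex15KO 3 read a median of 5 CpGs per member (57.1% of those in the tile) and the other samples 8 or 9, and 143 members rested on 3 or fewer CpGs in Tex15KO 3. A tile at the median depth and level had a Wilson interval of 0 to 10.7% in Tex15KO 3 and of 3.77 to 22.1% in Tex15KO 16. Reads copied by PCR carry no molecular identifiers here and may stem from the same molecule, so all intervals cover counting error only.

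In the members, the levels in Tex15KO 3 had a median of 0% and ran up to 20%, and those in Tex15KO 16 had a median of 10.4% and ran from 0 to 20%. The medians were 83.3% in Tex15HT 7, 81.1% in Tex15HT 18, 84.8% in Tex15WT 8 and 82.4% in Tex15WT 9, each with single tiles between 60% and 100%. Averaged over the members, the level was 7.07 ± 4.11% in Tex15KO, 81.7 ± 0.741% in Tex15HT and 82.8 ± 0.740% in Tex15WT (SD between pups, n = 2 each). The distance from the higher Tex15KO sample to the lowest control had a median of 60.8 percentage points over the members and ran from 41.0 to 93.3 points.

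**Figure D1:**
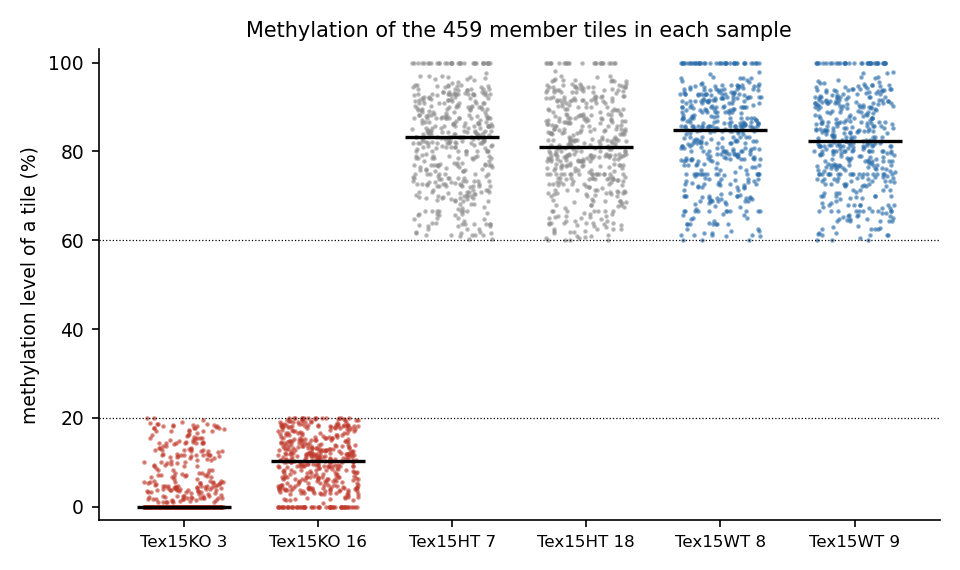
Methylation level in percent (vertical axis) of the 459 member tiles in each of the 6 samples, 1 point per tile, with a black bar at the median and dotted lines at the limits of the rule, 20% and 60%. The Tex15KO medians are 0% in Tex15KO 3 and 10.4% in Tex15KO 16, and the control medians lie between 81.1% and 84.8%.

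The knockouts differed in how close to 0 the members came. No methylated call was seen at 245 members (53.4%) in Tex15KO 3, at 52 (11.3%) in Tex15KO 16 and at 33 (7.19%) in both. Both extremes were more common in Tex15KO 3 outside the members as well. Of all tested tiles, 9.71% were at 0 in Tex15KO 3 and 2.08% in Tex15KO 16. Of the background tiles, 71.6% were at 100% in Tex15KO 3 and 15.5% in Tex15KO 16. The count of members at 0 is thus no measure of how the knockouts differ at the members. The members at 0 in Tex15KO 3 had a median of 24 calls, at which a count of 0 allows a level of up to 12.5%. Levels of 5% or less were reached by 321 members in Tex15KO 3 and by 122 in Tex15KO 16. Tex15KO 16 was above Tex15KO 3 at 338 members, below it at 87 and equal to it at 34.

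Controls were not fully methylated at the members. The background tiles had medians of 94.3% in Tex15HT 7, 93.0% in Tex15HT 18, 93.3% in Tex15WT 8 and 90.9% in Tex15WT 9, above the members' median in the same sample by 8.55 to 11.9 points. A level of 100% was reached by 34 members in Tex15HT 7, 23 in Tex15HT 18, 41 in Tex15WT 8 and 38 in Tex15WT 9, which is 5.01% to 8.93% of the members, against 19.5% to 32.2% of the background tiles.

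Between Tex15HT and Tex15WT the rule drew no line, but its limit of 60% in each of these samples keeps out any tile that was low in Tex15HT. The values that follow describe the members so chosen and do not test whether loss of 1 Tex15 copy lowers methylation. No member was called in Tex15HT against Tex15WT by edgeR's quasi-likelihood test at a Benjamini-Hochberg adjusted p under 0.05, where 0.00121% of all 330110 tested tiles were called (4 tiles, all lower in Tex15HT). At an unadjusted p under 0.05 the test put 2 members lower in Tex15HT and 0 higher, or 0.436% of the members against 0.537% of all tested tiles. limma on log2 ratios also called 0 members, and 0 of all tested tiles. Its unadjusted p was under 0.05 for 5 lower members and 1 higher, or 1.31% of the members against 1.57% of all tested tiles. The mean level over the members was 1.09 points lower in Tex15HT (81.7%, against 82.8% in Tex15WT), and Tex15HT was lower at 252 members (54.9%) and higher at 206. Over the background tiles the mean was 1.70 points higher in Tex15HT, which was lower at 40.4% of them. The difference over the members was of the size of the spread between pups of 1 genotype, and its sign changed with the thresholds.

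The fit of Tex15KO against the mean of Tex15HT and Tex15WT called 88 of the 459 members, all lower in Tex15KO. It called 0.0385% of all tested tiles (127), 0.0379% as lower in Tex15KO. limma called 408 members, all lower, and 0.277% of all tested tiles, 0.271% as lower. The rule used this contrast, so nothing is read from these counts. The median log2 difference in the edgeR fit was -6.21 over the members and 0.468 over all tested tiles. Without Tex15KO 3 these medians were -5.51 and 0.0588, and without Tex15KO 16 they were -8.84 and 2.79. With any 1 of the 4 controls left out they were -6.26 to -6.32 and 0.244 to 0.475. These differences are a description as well.

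A level that chose the tiles in 5 samples can be read in the sample left out. The rule without Tex15KO 3 chose 672 tiles that had 10 calls or more in it, and 459 of these (68.3%, interval 64.7 to 71.7) were at 20% or less in Tex15KO 3, where 2.34% of the background tiles were. Another 153 stood between the limits and 60 at 60% or more in Tex15KO 3. That share was 71.5% for tiles read at 3 or fewer CpGs in Tex15KO 3, 66.9% at 4 to 6 and 67.0% at 7 or more. The rule without Tex15KO 16 chose 5911 tiles, of which 459 (7.77%) were at 20% or less in Tex15KO 16, where 0.266% of the background tiles were, and 4841 were at 60% or more. The pups thus differed as selectors: most tiles low in Tex15KO 16 were low in Tex15KO 3, and most tiles low in Tex15KO 3 were methylated in Tex15KO 16.

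The 6 members with the most calls in their least covered sample show these levels with the least counting error. Their depth lies well above the members' medians of 25 to 42 calls. Whether reads of several copies are pooled in them was not tested, so they need not stand for the other members. The deepest, chr11:3092001-3093000 with 15 CpGs, stood at 16.4% in Tex15KO 3 (interval 14.2 to 18.9, 951 calls) and 14.9% in Tex15KO 16 (13.4 to 16.5, 2130 calls). Its control levels were 66.5% in Tex15HT 7, 65.5% in Tex15HT 18, 67.1% in Tex15WT 8 and 66.1% in Tex15WT 9, a spread of under 2 points at 1295 to 1635 calls. The next, chr2:150921001-150922000 with 9 CpGs, stood at 6.97% and 11.1% in Tex15KO 3 and Tex15KO 16, against 83.7% and 78.6% in Tex15HT 7 and Tex15HT 18 and 82.9% and 80.5% in Tex15WT 8 and Tex15WT 9. The member that shares its spacing with Gm36816, chr13:40721001-40722000 with 24 CpGs, stood at 5.48% and 15.3% in the knockouts and between 85.1% and 94.0% in the controls. In each of these the Tex15KO intervals and the control intervals lie far apart. The rule that chose the members already set these levels apart, and the deepest members have narrow intervals. The distance between the intervals is thus a description and no test of the knockout.

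Of the other deep members, chr4:88022001-88023000 with 15 CpGs had 11.3% and 11.8% in Tex15KO 3 and Tex15KO 16, and 77.2% to 84.3% in the controls. The member chr5:15011001-15012000 with 23 CpGs had 2.16% in Tex15KO 3 and 16.5% in Tex15KO 16, with intervals that do not meet (0.737 to 6.15 and 13.1 to 20.7), and 67.4% to 86.6% in the controls. The member with the most CpGs, 29, was chr4:121672001-121673000, at 17.8% and 19.1% in Tex15KO 3 and Tex15KO 16 and 71.3% to 81.6% in the controls. The second in CpG number, chr1:168870001-168871000 with 26, had 5.05% and 14.1% in the knockouts and 63.8% to 82.4% in the controls.

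The limits of the rule divide tiles that counting error cannot separate. Exactly at a limit were 25 members, 14 of them at 20% in Tex15KO 16, 2 at 20% in Tex15KO 3 and 9 with a control at 60%. Named as the first of this tie in order of position, chr1:17212001-17213000, chr10:14367001-14368000 and chr10:118347001-118348000 stood at 20% in Tex15KO 16, on 35 to 50 calls. Just outside, chr7:126896001-126897000 had 20.2% in Tex15KO 16, chr5:133732001-133733000 had 20.3% in Tex15KO 16 and chr3:76313001-76314000 had 20.3% in Tex15KO 3. In all, 111 members lay within 2 points of a limit and 82 tiles missed the rule by no more than 2 points.

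Members held somewhat more CpGs than the background, and held them closer together. The median member had 9 CpGs (quartiles 7 and 12, from 3 to 29), against 7 in the background tiles and 8 in all tested tiles. Tiles with 10 to 19 CpGs were 40.3% of the members (185) against 20.5% of the background, and tiles with 20 or more were 1.96% (9) against 0.275%. The share of background tiles that were members was 0.133% at 3 to 9 CpGs, 0.357% at 10 to 19 and 1.29% (interval 0.683 to 2.44) at 20 or more. Successive CpGs within a member lay a median of 22 bp apart, against 59 bp in the background, and 47.4% of these distances were 20 bp or less, against 24.7%. The CpGs of a member spanned a median of 546 bp of its tile. Within the limits of the rule, the mean at 20 or more CpGs was 5.72% in Tex15KO 3, 13.5% in Tex15KO 16, 77.0% in Tex15HT 7, 77.1% in Tex15HT 18, 81.1% in Tex15WT 8 and 80.6% in Tex15WT 9. At 3 to 9 CpGs it was 3.89% in Tex15KO 3, 9.74% in Tex15KO 16, 83.1% in Tex15HT 7, 82.4% in Tex15HT 18, 84.2% in Tex15WT 8 and 82.4% in Tex15WT 9.

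Members lay on all 19 autosomes. Their share of the tested tiles ran from 0.0696% on chromosome 8 (13 members) to 0.255% on chromosome 13 (39 members), and chromosome 4 held the most members, 49. The gene tables used here are of another build than the files, so no gene, exon, intron or UTR was assigned to a member.

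Many members stood beside a long stretch without any CpG in the table. A gap was measured from the outermost CpG of a tile to the next CpG of the table, which lists cytosines with at least 3 calls summed over the pups of each genotype, so a gap can hold CpGs that were not read. On at least 1 side, 250 members (54.5%, interval 49.9 to 59.0) had a gap of 1 kb or more, against 15.8% of the background tiles. For gaps of 2 kb or more the shares were 30.3% (139 members) and 2.25%, for 4 kb or more 19.6% (90) and 0.432%, and for 6 kb or more 13.7% (63) and 0.216%. Of the 250 members, 202 had such a gap on 1 side, 108 towards lower and 94 towards higher coordinates, and 48 had it on both. The difference held within CpG classes: among members with 3 to 9 CpGs 60.8% had a gap of 1 kb or more, against 17.8% of such background tiles, and with 10 or more CpGs 45.9% against 8.05%.

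Gap lengths of the members had a second rise between 6 and 7.5 kb, as did those of the background. There were 53 members (11.5%, interval 8.94 to 14.8) in that range, against 349 background tiles (0.138%), so members were 15.2% of such tiles. Background tiles, members included, numbered 92 at 5.5 to 6 kb, 128 at 6.5 to 7 kb and 63 at 7.5 to 8 kb. The share of background tiles that were members was 0.0766% for gaps under 0.5 kb and 3.57% to 6.52% between 4.5 and 6 kb. It was 17.9% at 6 to 6.5 kb, 13.3% at 6.5 to 7 kb and 14.7% at 7 to 7.5 kb. The bounds of this range were set after the gap lengths had been seen. A gap of exactly 6830 bp occurred beside 3 members, on chromosomes 2, 13 and 14.

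**Figure D2:**
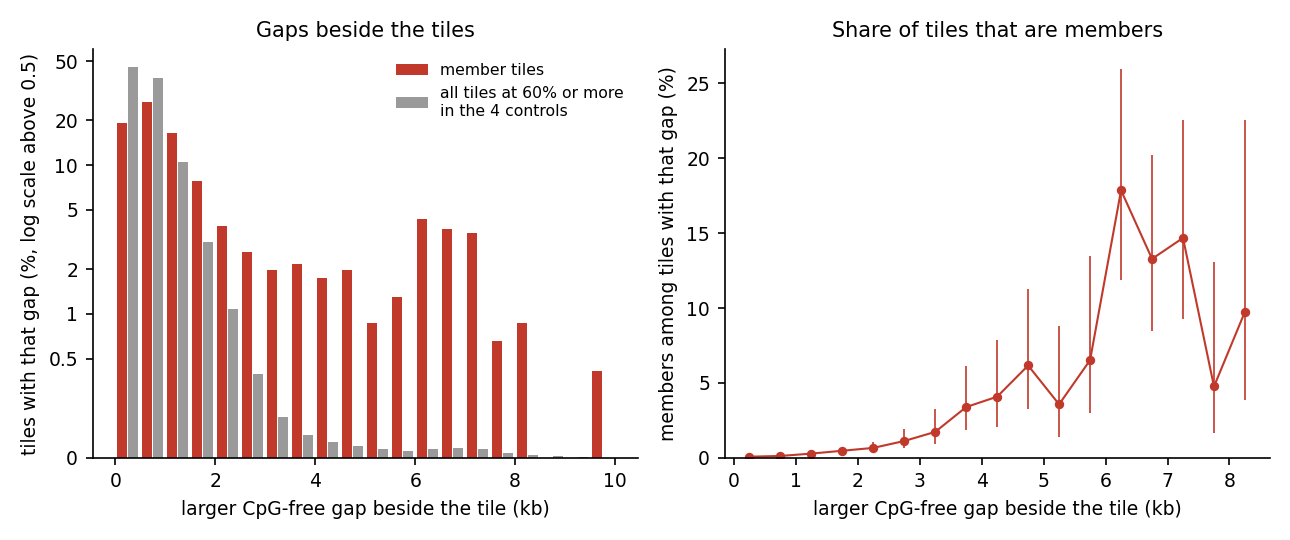
Left, share in percent of member tiles (red) and of background tiles (grey, tested tiles at 60% or more in the 4 controls) by the larger CpG-free gap beside the tile in kb, on a scale that is linear below 0.5 and logarithmic above. Right, members as a percent of background tiles with that gap, with 95% Wilson intervals. The members' share rises from 0.0766% at the shortest gaps to between 13.3% and 17.9% from 6 to 7.5 kb.

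The 349 background tiles beside a gap of 6 to 7.5 kb include the 53 members there. The rule itself put those 53 at 20% or less in both knockouts. Members included, Tex15KO 3 was at 20% or less in 87 (24.9%) and Tex15KO 16 in 76 (21.8%). Among background tiles with gaps under 1 kb, which include 209 members, these shares were 2.15% and 0.140%. Members thus make up most of the low tiles among the 349, and the shares are a description. Over the 349 tiles the median was 79.5% in Tex15KO 3 and 78.6% in Tex15KO 16. It was 87.5% in Tex15HT 7, 87.3% in Tex15HT 18, 90% in Tex15WT 8 and 86.7% in Tex15WT 9. The median depth at these tiles was 28 and 33 calls in Tex15KO 3 and Tex15KO 16 and 20 to 25 in the controls.

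Low methylation in the knockouts was seldom met again on the far side of the gap. Across the gaps of 6 to 7.5 kb, the next 5 CpGs beyond had a median of 91.7% in Tex15KO 16, where 47 of 53 were at 60% or more and 2 at 20% or less. In Tex15KO 3 the far side had 5 or more calls at 32 of these members, with a median of 100% and 27 at 60% or more. The far medians were 93.3% in Tex15HT 7, 90.9% in Tex15HT 18, 91.3% in Tex15WT 8 and 83.8% in Tex15WT 9. At no member was the far side at 20% or less in Tex15KO 16 with all controls at 60% or more (0 of 53, which allows a share of up to 5.66%). Over all 151 gaps of 2 kb or more, 1 was.

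Members seldom came in pairs. The 459 tiles formed 444 runs of adjoining tiles, 429 of them of a lone tile and 15 of 2 tiles, so no run was longer than 2 kb. Among the tested tiles directly beside a member, 25% were members (15 pairs), against 0.139% of all tested tiles. At distances of 4 to 8 kb there was 1 pair, and 0.588% of the 340 tested tiles seen at that distance were members. Pairs are counted from both ends, so the interval (0.161 to 2.12) is too narrow and does not set this share apart from 0.139%. At 9 to 30 kb there was also 1 pair, or 0.118% of 1694 tested tiles.

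The pair 4 to 8 kb apart was chr18:90723001-90724000 with 10 CpGs and chr18:90728001-90729000 with 13 CpGs. The first stood at 9.46% in Tex15KO 3 and 0% in Tex15KO 16, against 82.9%, 85.7%, 81.0% and 84.2% in Tex15HT 7, Tex15HT 18, Tex15WT 8 and Tex15WT 9. The second stood at 0% in Tex15KO 3 and 3.23% in Tex15KO 16, against 70.0%, 64.0%, 73.3% and 86.7% in those controls. The 12 CpGs between the tiles were at 74.5% in Tex15KO 16, against 82.6% and 85.0% in Tex15HT and 77.3% and 76.5% in Tex15WT, so the methylation between them was kept in that pup. Tex15KO 3 had no calls there.

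More pairs were seen without Tex15KO 3, which removes both its minimum of calls and its limit of 20%. Without it, the rule gave 1052 tiles, 0.187% of those tested without it, with 13 pairs 4 to 8 kb apart. In 10 of these pairs a tile had under 10 calls in Tex15KO 3, in 2 both tiles were read and 1 was above 20% there, and 1 was the pair of members. At that distance 1.87% of the tested tiles were chosen, against 23.9% directly beside, 4.22% at 2 to 3 kb and 0.517% at 9 to 30 kb. Its interval (1.28 to 2.72) is again too narrow, as pairs are counted from both ends. Between the tiles of those 13 pairs, Tex15KO 16 had a median of 36.7%, with 8 pairs at 50% or less and 5 at 60% or more, against 83.9% and 83.3% in Tex15HT and 82.7% and 83.3% in Tex15WT. In none of the 13 pairs did both tiles share a run of 3 CpGs of the same spacing, in either direction (0 pairs).

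The low region around a member was often wider than its tile. A core was taken outward from the member over the CpGs read in Tex15KO 16. It went on while the mean of 3 successive such CpGs stayed at 50% or less and the next was less than 1 kb away. The core around a member had a median width of 1071 bp (quartiles 635 and 1722, from 33 to 5133) and a median of 12 CpGs. It was under 500 bp at 85 members, 1 kb or more at 250 and 2 kb or more at 75, and it reached past the tile at 350. Since 32 members share their core with another, there were 443 distinct cores, with a median width of 1048 bp, and each is counted once from here on. In the parts of cores outside any member tile, which the rule did not read, Tex15KO 3 had 5 or more calls in 174 cores, with a median of 0.908%, 109 (62.6%) at 20% or less and 40 at 60% or more. The medians of the controls there were 77.8% in Tex15HT 7, 77.8% in Tex15HT 18, 80% in Tex15WT 8 and 77.1% in Tex15WT 9. With the core bounded at 30% in place of 50%, the median width around a member was 629 bp.

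Core ends were of 2 kinds. Of 886 ends, 519 met methylated CpGs and 367 met a gap of 1 kb or more. Both ends were methylated in 160 cores (median width 1357.5 bp), 199 had a gap at 1 end (1049 bp) and 84 lay between gaps (619 bp). At methylated ends the next CpG read in Tex15KO 16 lay a median of 276 bp away, and within 100 bp at 31.8% of them, so the CpGs place many edges only loosely.

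The methylated ends were placed where the running mean of Tex15KO 16 passed 50%, so a rise in that sample at the end is built in. Tex15KO 16 averaged 11.1% from 800 to 400 bp inside the end, 29.4% in the last 100 bp, 45.5% in the first 100 bp outside, 69.9% at 200 to 400 bp and 85.6% at 800 to 1600 bp. Tex15KO 3, which did not place the ends, averaged 9.02%, 23.3%, 31.8%, 50.9% and 82.5% over those distances. The controls rose less across the ends, with 76.6% to 80.2% at the innermost of these distances and 85.3% to 86.8% at the outermost. At ends that met a gap there is by definition no CpG read in Tex15KO 16 within 1 kb outside, so how its level changes there could not be read. Over the last 100 bp inside such ends the mean was 12.9% in Tex15KO 16 and 10.96% in Tex15KO 3, against 76.4% to 80.7% in the controls. Where CpGs resumed up to 1600 bp beyond, it was 71.5% in Tex15KO 16 and 70.9% in Tex15KO 3, against 76.9% to 84.2% in the controls.

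**Figure D3:**
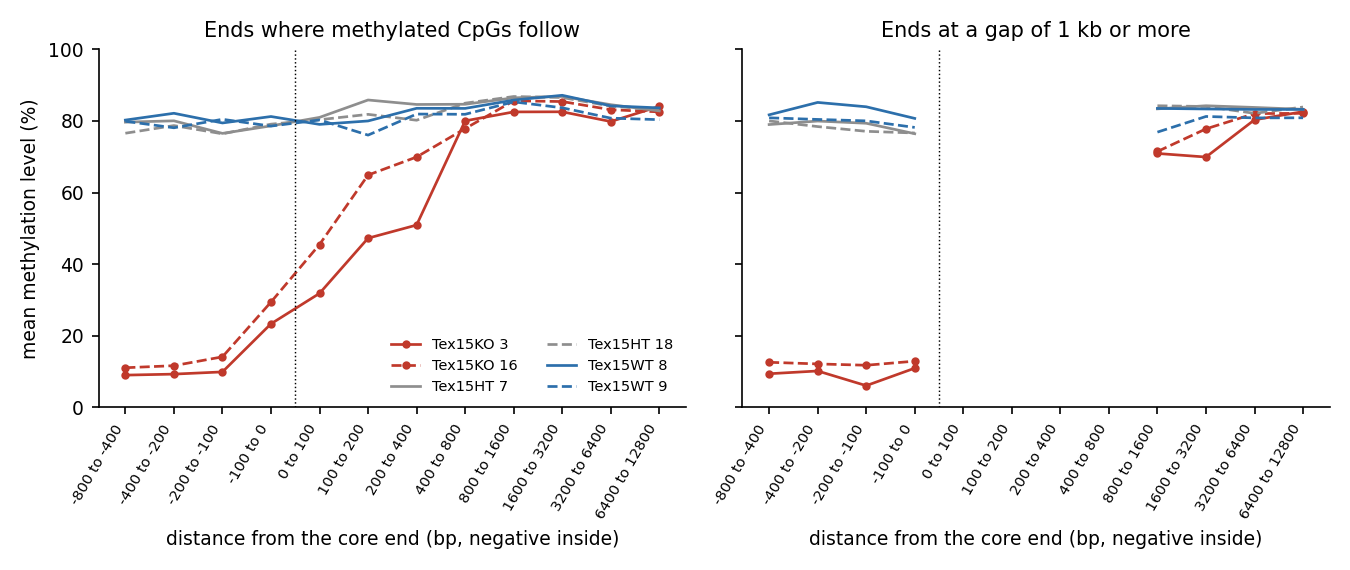
Mean methylation level in percent (vertical axis) of CpGs by distance in bp from the end of the low core (negative is inside, dotted line at the end), 1 line per sample, at ends followed by methylated CpGs (left) and at ends that meet a gap of 1 kb or more (right). Both Tex15KO lines (red) climb from 11.1% and 9.02% well inside to 85.6% and 82.5% at 800 to 1600 bp outside the methylated ends. The Tex15HT (grey) and Tex15WT (blue) lines rise less, from between 76.6% and 80.2% to between 85.3% and 86.8%.

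Tiles directly beside members ranged from low to methylated in the knockouts. Of 918 such positions, 30 were members, 560 held CpGs but were under the minimum of CpGs or calls, 238 held no CpG of the table and 90 were tested and missed the rule. Those 90 averaged 43.1% in Tex15KO 3 and 38.8% in Tex15KO 16, against 76.5% in Tex15HT 7, 76.5% in Tex15HT 18, 76.6% in Tex15WT 8 and 75.0% in Tex15WT 9. Both knockout means lay between those of the members and those of the background, but they pool low and methylated tiles. Of the 90, 36 were at 20% or less and 31 at 60% or more in Tex15KO 3. In Tex15KO 16, 23 were at 20% or less and 24 at 60% or more. Adjoining tiles that met the rule were counted as members, which by itself raises the means of the 90.

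CpG spacing that recurs through the genome marks copies of a repeated sequence without an annotation. A run of 6 CpGs with the same 5 distances at 10 or more places of the table was called recurring, and there were 662 such runs. They occurred in 42 members (9.15%), against 0.313% of the background tiles, and 5.31% of the background tiles with recurring spacing were members. Recurring spacing was found in 23.8% of the members with a gap of 6 kb or more (15 members), in 8.56% of those with one of 1 to 6 kb (16) and in 5.26% of those with a shorter one (11). No repeat annotation was used, so no element is named for these tiles.

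Shorter runs were shared by more members. A run of 4 CpGs with the same 3 distances was shared with another member by 208 members (45.3%), and 10 such runs occurred in 10 or more members each, covering 64 members (13.9%). Neither share was counted for background tiles, whose CpGs lie farther apart. The shares are thus no measure of how many members are copies of a repeated sequence. The most frequent, with distances of 4, 21 and 12 bp, was found in 25 members, which were 54.3% (interval 40.2 to 67.8) of the 46 background tiles that hold it. The next were 3, 7 and 13 bp (18 members, 39.1% of 46 tiles), 4, 13 and 7 bp (17 members, 37.0%) and 13, 4 and 21 bp (16 members, 50% of 32 tiles). The run of 4, 5 and 7 bp was found in 15 members (23.1% of 65 tiles). Each of these shares stands against 0.182% for all background tiles, and the runs were picked for their number of members, so their shares are a description. Runs overlap in the same members and are not independent of each other.

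The runs had a fixed orientation towards the gap. Of the members with a gap of 2 kb or more on 1 side only, all 21 that hold the run of 4, 21 and 12 bp had the gap on the side of the 4 bp distance. The run of 4, 12 and 21 bp had it on the side of the 21 bp distance in 12 of 12, and that of 13, 4 and 21 bp on the side of the 13 bp distance in 11 of 11. Runs were joined where at least 50% of the members with the rarer run also held the other, which put 8 runs in 1 group with the first, in 47 members on 19 chromosomes. Counting for each run the side that most of its members had as the common side, the gap was there in 34 members and was not, for at least 1 of their runs, in 1. Of those 47, 37 had a gap of 2 kb or more and 29 one of 4 kb or more, with a median gap of 5763 bp, and they averaged 7.79% in Tex15KO 3 and 9.73% in Tex15KO 16, against 81.2% in Tex15HT and 82.9% in Tex15WT. The runs of 4, 5 and 7 bp and of 5, 7 and 7 bp occurred in 17 members on 11 chromosomes, with the gap on the common side in 10 and not in 1, and a median gap of 4855 bp.

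**Figure D4:**
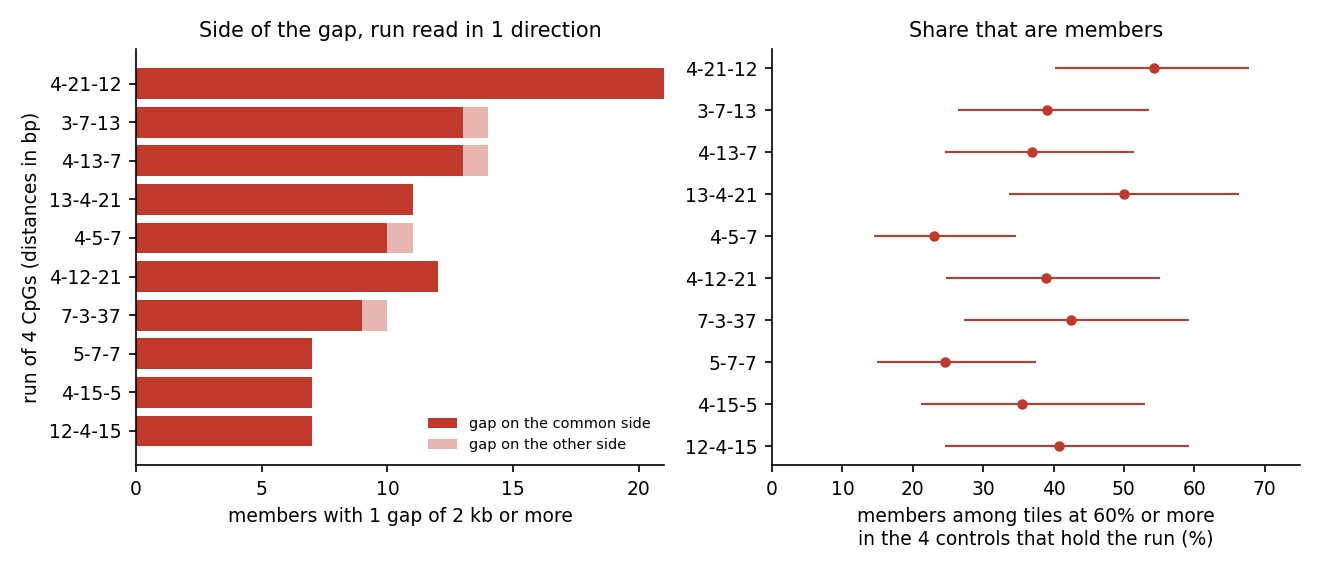
Left, number of members with a gap of 2 kb or more on 1 side only that hold each of the 10 most shared runs of 4 CpGs, named by the distances in bp, split by whether the gap is on the side most members have (dark) or on the other (light). Right, members as a percent of the background tiles that hold the run, with 95% Wilson intervals, from 23.1% for 4-5-7 to 54.3% for 4-21-12.

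Both kinds of run stand in the promoter windows printed above. In the Gm35240 window the run of 4, 21 and 12 bp starts at base 91 and that of 4, 15 and 5 bp at base 128, and in the Gm36816 window the run of 4, 5 and 7 bp starts at base 179. Runs of 4, 21 and 12 bp were found in 13 of the 32851 promoter windows (0.0396%), in either direction, and those of 4, 5 and 7 bp in 263 (0.801%). A match of spacing is a description and does not place a member in a gene.

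Over the background tiles, members included, the mean level in Tex15KO 16 was 63.2% beside a gap of 6 to 7.5 kb. It was 91.4% beside one under 1 kb. The levels of the members are held within the limits of the rule. The 63 members with a gap of 6 kb or more averaged 6.51% in Tex15KO 3 and 10.8% in Tex15KO 16, against 81.5% in Tex15HT 7, 81.2% in Tex15HT 18, 84.2% in Tex15WT 8 and 84.2% in Tex15WT 9. The 209 with gaps under 1 kb averaged 3.67% and 10.4% in Tex15KO 3 and Tex15KO 16, against 83.9%, 81.7%, 83.7% and 82.2% in those controls. The median CpG number was 8 with a gap of 6 kb or more, 9 with one of 1 to 6 kb and 10 with a shorter one. Levels on the plus and the minus strand were near each other, at 10.6% and 10.7% in Tex15KO 16 and 83.8% and 82.3% in Tex15WT 8, over members with 5 or more calls on the strand.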

How the data were processed

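Per the labels' protocols, germ cell DNA of each pup was bisulfite-treated with an unmethylated lambda spike and made into libraries with a low-input methylation kit. The authors deposited 1 table for all 6 samples with counts at each CpG cytosine, per the file headers: coverage, calls read as C and calls read as T. The tools named in the submitters' processing notes are BSMAP, Bismark and methylKit, with the build mm9. Their roles and versions, removal of duplicates and the conversion rate are not given here. Coverage equalled C plus T at all 10025464 cytosines (0 exceptions), and each genotype's calls summed to 3 or more. Total calls were 27495658 (Tex15KO 3), 52935635 (Tex15KO 16), 34236130 (Tex15HT 7), 40876698 (Tex15HT 18), 33019847 (Tex15WT 8) and 33944329 (Tex15WT 9).

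Strands were merged to 8610279 CpGs and calls summed over tiles of 1 kb from position 1. Tested tiles were 16.3% of the autosomal tiles with a CpG. A level is C calls over all calls, and intervals are 95% Wilson intervals. The test across tiles was edgeR 4.0.16 (quasi-likelihood, R 4.3.3) on methylated and unmethylated counts of 330110 tiles of all chromosomes, fitted over all 6 samples with a term for each sample, and its p-values were adjusted by Benjamini-Hochberg. The alternative was limma 3.58.1 on log2 ratios (pseudocount 1). The edgeR fit draws the spread of each tile towards that of all tiles. With 2 pups per group, its p says little of how pups of a genotype differ at a given tile. Both the fit and the core search were tested on simulated data. Groups came from the sample titles. Other steps used Python 3.11.15, numpy 2.4.6, pandas 2.3.3, scipy 1.17.1 and matplotlib 3.10.9.

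Regions named are the 6 members with the highest minimum calls, the 4 with the most CpGs, the pairs 4 to 8 kb apart, and the 3 tiles nearest to a limit on either side; the longest runs of adjoining members tied at 2 tiles, and none was singled out. Alternatives were the minimum calls and CpGs, tile size and start, thresholds, removal of the top 0.1% of coverage, each sample left out, and the bounds of the core. The members and lists were chosen with earlier results of these data known. Gap ranges, runs of 4 CpGs, their orientation and the promoter matches were chosen after these data were seen.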

Additional observations from a re-analysis of the deposited data

Results flagged for a closer look

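Tiles outside the autosomes were not part of the comparison, and some met the same thresholds. Few tiles were tested there, whereas chromosome 19, the autosome with the fewest, had 10219. The tested tiles need not stand for the rest of the X chromosome, and their levels, chosen by the thresholds, are a description. On the X chromosome 7 of 289 tested tiles met the thresholds of the members (2.42%, interval 1.18 to 4.91), and on unplaced sequence 4 of 281 did (1.42%, interval 0.555 to 3.6), against 0.139% of the autosomal tested tiles. The deepest X tile, chrX:113526001-113527000 in mm9 with 6 CpGs, stood at 19.1% in Tex15KO 3 and 12.7% in Tex15KO 16, against 71.5% in Tex15HT 7, 65.5% in Tex15HT 18, 66.4% in Tex15WT 8 and 71.4% in Tex15WT 9. It and the tiles below were picked after their values were seen. The X tile with the most CpGs, 14, was chrX:161007001-161008000, at 12% in Tex15KO 3 and 7.84% in Tex15KO 16, against 60.3% to 93.0% in the controls. The deepest unplaced tile had 15 CpGs and stood at 19.8% in Tex15KO 3 and 5.05% in Tex15KO 16, against 69.3% to 82.1% in the controls. The intervals cover counting error only, and why these shares differ from the autosomal one was not tested.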

How the results depend on the processing

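Depth limits the members first: at 30 calls 61 tiles remained, with a median of 14 CpGs, 21.3% with recurring spacing, 49.2% with a gap of 1 kb or more, none in a pair 4 to 8 kb apart (0%) and Tex15HT minus Tex15WT at -1.88 points. Limits of 10% and 80% left 44 tiles (gap 40.9%, pairs 0%, Tex15HT minus Tex15WT 0.171 points), and 30% and 50% gave 973 (-2.40 points). Tiles of 2 kb gave a median of 10 CpGs, 72.2% with a gap and -1.85 points. Tiles shifted by 500 bp gave 0% in pairs and -2.15 points. A core bounded at 30% had a median width of 629 bp. Leaving out each sample in turn gave 529 to 5920 tiles (1052 without Tex15KO 3, 5920 without Tex15KO 16), a median of 7 to 9 CpGs, 0.353% to 3.23% in pairs, 1.55% to 9.32% with recurring spacing, 22.8% to 56.7% with a gap and a Tex15HT minus Tex15WT difference of -2.28 to 1.28 points. Without Tex15KO 16 the gap share was 22.8% and the recurring share 1.55%. Each set with a sample left out held all 459 members, which had to be so because leaving out a sample only removes its limits. In Tex15KO against the controls, limma called 408 members, edgeR 66 without the top 0.1% of coverage and 3 to 450 with a sample left out, against 88. Why these values moved was not tested beyond the changed limits, tiles and samples themselves. No member was called in Tex15HT against Tex15WT under any of these fits (0). A minimum of 5 CpGs left 446 tiles and moved none of these values beyond its error. No paired analysis was possible because the groups share no pup numbers.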
